A study of Mus musculus with 20 samples.

Results

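The genes of the extracellular matrix and of the fibroblasts that make it were followed through the left ventricle of DOXO-treated and FA-fed mice. The list held 46 genes, given by name, from the fibrillar collagens to the TGF-beta ligands, and 43 of them were measured, out of 19937 genes that the array annotation names. A gene counted as measured if a transcript cluster, the array's summary of the probes over the exons of a gene, carried its symbol and no other. Each of the 43 had exactly 1 such cluster, 42 under the listed symbol and Ctgf under its newer symbol Ccn2. Loxl2 shares its cluster with another gene, and Fbn1 and Spp1 had no cluster of their own in the annotation used here, so these 3 were not analysed here. The mice were male C57BL/6, 2 months old per the labels, and the ventricle of each was hybridized to its own Affymetrix Mouse Gene 1.0 ST array. The FA-DOXO group (6 mice) was fed FA and injected with DOXO, the DOXO group (6 mice) had placebo diet and DOXO, the FA-sham group (4 mice) had FA and saline, and the sham group (4 mice) had placebo diet and saline. DOXO, an anthracycline used against tumours that also injures the heart, was a single intraperitoneal injection of 20 mg/kg. FA, folic acid, was given at 10 mg/day in a soft dough that the placebo mice ate plain, and the feeding had run for 7 days when DOXO or saline was injected. Both diets went on until day 10, the last.

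The cardiac matrix is a network of collagen fibrils laid down mainly by fibroblasts, in which small proteoglycans set the width of the fibrils, lysyl oxidases cross-link them, metalloproteinases cut them and tissue inhibitors (TIMPs) block the cutting. Matricellular proteins such as thrombospondins and connective tissue growth factor do not bear load but pass signals between cells and matrix, and TGF-beta is the best known signal by which fibroblasts are driven to make more matrix. In fibrosis this network accumulates, and the study asked, among other outcomes, how FA alters the injury that DOXO causes in the ventricle.

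The arrays differed in how widely their log2 signals spread, in every group. The SD over all 34760 clusters of an array was 0.863 to 1.5, with group means of 1.04 in FA-DOXO, 1.13 in DOXO, 0.957 in FA-sham and 1.27 in sham mice. Arrays with an SD above 1.1 are called wide here and the others narrow. There were 8 wide arrays, 2 of FA-DOXO, 2 of DOXO, 1 of FA-sham and 3 of sham mice, so 3 of 4 sham arrays were wide but 4 of 6 DOXO arrays narrow. Tests therefore carried the array SD as a covariate. The fit without it is given for the genes that were called and, for the other members, as the number whose difference had the opposite sign there. The 12 markers of heart muscle had lower signals on the narrow arrays in every group. Their mean log2 signal on wide arrays was 11.83 in FA-DOXO, 12.18 in DOXO, 11.23 in FA-sham and 12.14 in sham mice. On narrow arrays it was 8.94, 9.40, 8.46 and 9.20 in the same order. Differences between groups may therefore also come out smaller on narrow than on wide arrays, which was not tested.

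The matrix genes did not share a common response to the width of the array. The proteoglycan decorin (Dcn), which coats collagen fibrils, had a log2 signal of 12.34 ± 0.37 on the 8 wide arrays and of 9.07 ± 1.5 on the 12 narrow ones (mean ± SD). Osteonectin (Sparc), a collagen-binding matricellular protein, was at 10.00 ± 0.81 on wide and 7.39 ± 0.49 on narrow arrays. Timp3, the inhibitor that is itself bound to the matrix, was at 9.59 ± 1.15 and 6.94 ± 0.41 on the same arrays. Differences over 1 log2 unit were found for 9 members (20.9% of them, against 12.3% of all clusters), which also included Bgn, Timp4, Lum, Ctgf, Timp2 and Mmp2. The fibrillar collagens went the other way. Col1a1, the chain that makes up most of type I collagen, was at 7.29 ± 0.16 on wide and 7.65 ± 0.08 on narrow arrays, and Col3a1, of the thinner type III fibrils, at 7.08 ± 0.17 and 7.33 ± 0.10. All 6 fibrillar and fibril-associated collagens were lower on the wide arrays in each of the 4 groups. The fall was over 0.5 log2 units for Col6a3, Col18a1 and Tnc (6.98% of the members, against 25.7% of all clusters). These values describe the arrays and were not tested. In whole ventricle, fewer cells of a type and less RNA per cell cannot be told apart, and here neither can be told apart from the width of the array.

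**Figure D1:**
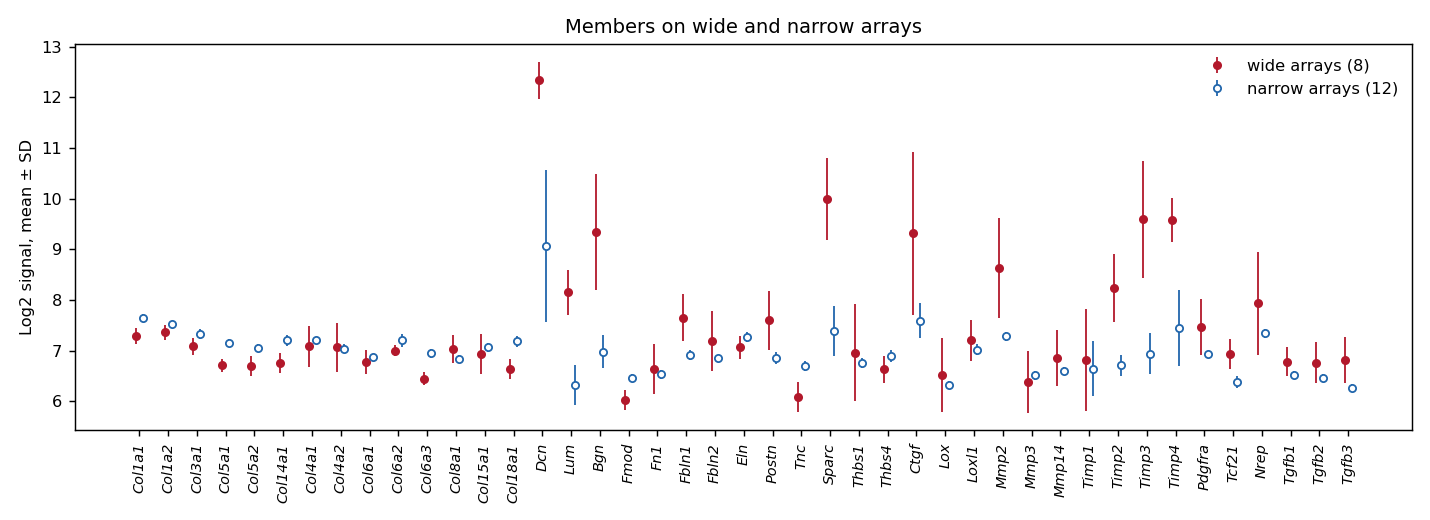
Mean log2 signal of each of the 43 measured matrix and fibroblast genes (vertical axis; bars, SD) on the 8 wide arrays (filled) and the 12 narrow arrays (open), with genes ordered by role along the horizontal axis. Dcn, Sparc, Timp3, Bgn and Timp4 lie more than 2 log2 units higher on the wide arrays, while the collagens at the left lie close together or slightly lower.

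**Figure D2:**
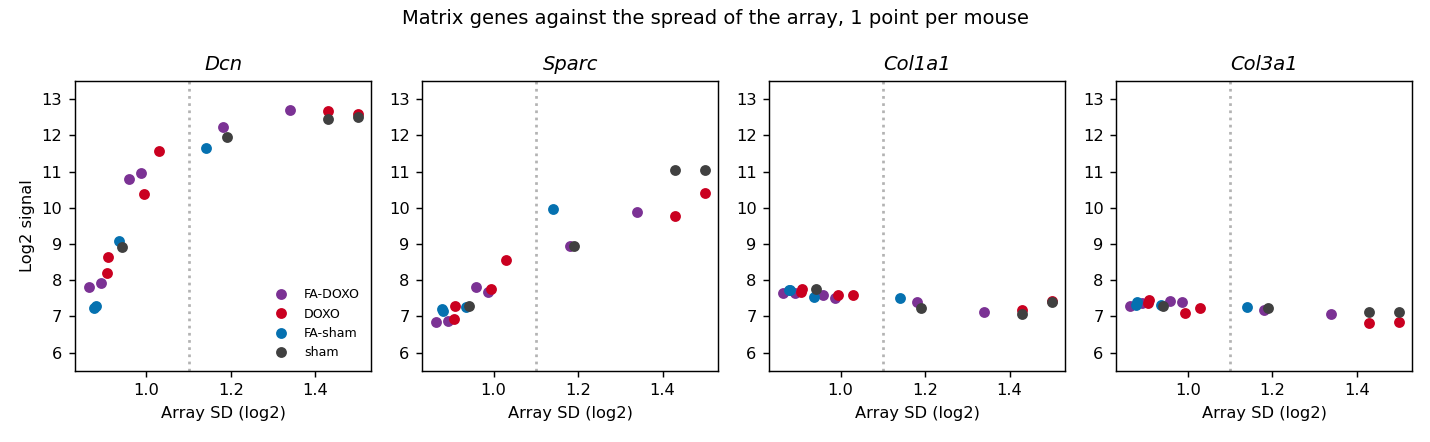
Log2 signal of Dcn, Sparc, Col1a1 and Col3a1 (vertical axis) against the SD of the array's log2 signals (horizontal axis), with 1 point per mouse coloured by group and a dotted line at the SD of 1.1 that separates narrow from wide arrays. Dcn and Sparc climb with the array SD in all groups, and Col1a1 and Col3a1 stay between 6.82 and 7.76.

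DOXO versus sham, which asks what DOXO does to the matrix genes without FA, gave calls among regulators of the matrix and none among the fibrillar collagens. With the array SD in the fit, 5 of 43 members were higher in DOXO mice at the unadjusted threshold of 0.01 that the study's methods name, where 3.14% of all clusters were. These were the matricellular genes Ctgf and Thbs4, the cross-linking enzyme Lox, the metalloproteinase Mmp3 and the metalloproteinase inhibitor Timp1. Nrep was lower in DOXO mice, as 1 of 43, where 1.00% of all clusters were lower. The other 37 did not pass. After Benjamini-Hochberg adjustment over all clusters only Nrep passed 0.05 (limma), 1 of 43 members, beside 0.170% of all clusters. Without the array SD the members called were Mmp3 and Thbs4 as higher and Nrep as lower, against a background of 0.532% of clusters higher and 0.515% lower. The median difference of the members was 0.07 log2 with the array SD and -0.01 without it, and that of all clusters 0.04 and 0.10. In the fit without it 10 of the 43 members had the opposite sign, Dcn, Bgn, Fbln1, Tnc, Mmp2, Timp3, Timp4, Pdgfra, Tcf21 and Tgfb1, none of which passed in either fit.

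Ctgf encodes connective tissue growth factor, a matricellular protein induced by TGF-beta and by mechanical load (transcript cluster 10362201). Its log2 signal in DOXO mice was 7.35 at the lowest, 8.20 at the median and 12.76 at the highest. In sham mice it was 7.57, 8.77, 8.43 and 7.24. The groups overlapped, and the 2 highest DOXO values, 12.76 and 9.77, were both on wide arrays. The fitted difference of DOXO minus sham was 1.73 ± 0.39 log2 (SE), 3.31-fold higher in the fit (limma, unadjusted p = 0.000304, adjusted p = 0.0817). The fit takes 1 slope on the array SD for all groups, 5.44 log2 per unit for Ctgf. Moved to the mean SD, the sham values became 7.03, 6.55 and 6.62 on wide arrays and 8.08 on the narrow one. Their mean of 7.07 lay below the lowest sham signal, so the fold is not a difference of measured signals. The call of Ctgf depended on the covariate, since the difference was 0.97 with an unadjusted p = 0.241 in the limma fit without it. On wide arrays alone (2 DOXO and 3 sham mice) it was 3.01, and on narrow ones (4 DOXO mice and 1 sham mouse) 0.59. Without DOXO replicate 5, the mouse at 12.76, it was 1.09 with an unadjusted p = 5.78e-05 in the limma fit with array SD.

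Thrombospondins are adhesive matricellular glycoproteins, of which thrombospondin 1 (Thbs1) can release active TGF-beta from its latent form. Thbs4 (cluster 10411082), known from muscle and tendon, was at a log2 signal of 6.59, 6.86 and 7.04 in DOXO mice (lowest, median, highest), and at 6.48, 6.18, 6.35 and 6.82 in sham mice. The groups overlapped, with DOXO mice at 6.59 and 6.72 below the narrow sham array at 6.82. The fit gave 0.33 ± 0.10 log2 (SE), 1.25-fold (limma, unadjusted p = 0.00487, adjusted p = 0.196), and 0.38 without the covariate (unadjusted p = 0.00591). The difference was 0.54 on wide arrays and 0 on narrow ones. The wide sham signals of 6.48, 6.18 and 6.35 lay close to their array medians of 6.40, 6.23 and 6.33. Without sham replicate 1, 2 or 3, or without DOXO replicate 5, Thbs4 no longer passed (limma, unadjusted p = 0.0112, 0.0192, 0.0122 and 0.0278 in that order), with a difference of 0.20 in the last of these. Thbs1 was at 6.68, 6.72 and 9.13 in DOXO mice and at 6.30, 6.47, 6.43 and 6.57 in sham mice. All 6 DOXO signals of Thbs1 lay above all 4 sham signals, but its fitted difference of 0.85 ± 0.32 log2 (SE) did not pass (limma, unadjusted p = 0.0163, adjusted p = 0.277). Full separation of the groups, DOXO above sham, was seen for 2 of the 43 members, Thbs1 and Timp1 (4.65%), and for 0.213% of all clusters. The other matricellular members gave -0.16 for Postn (periostin) and -0.07 for Tnc (tenascin-C) as log2 differences, neither past the threshold. Sparc was at 6.92, 8.16 and 10.40 in DOXO mice and at 8.94, 11.04, 11.04 and 7.29 in sham mice, so that the groups overlapped. Its difference was -0.26 ± 0.26 log2 (SE) with the array SD and -1.13 without it, and did not pass.

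Timp1, the secreted inhibitor of most matrix metalloproteinases (cluster 10598976), was at a log2 signal of 6.29, 7.05 and 8.44 in DOXO mice (lowest, median, highest) and at 6.15, 5.97, 6.02 and 6.24 in sham mice. The groups did not overlap, though 2 DOXO mice, at 6.29 and 6.35, lay close above the highest sham value. The sham signals were all below their array medians, which were 6.40, 6.23, 6.33 and 6.60 in the same order. The difference was 1.23 ± 0.35 log2 (SE), 2.35-fold (limma, unadjusted p = 0.00267, adjusted p = 0.159), and 1.02 without the covariate (unadjusted p = 0.0195). It was 1.92 on wide and 0.45 on narrow arrays. Timp1 no longer passed without sham replicate 2 (limma, unadjusted p = 0.0106) or without DOXO replicate 5 (limma, unadjusted p = 0.0162). Of the other inhibitors, Timp2 gave -0.15, Timp3 0.53 and Timp4 0.18 log2. Timp3 came nearest to the threshold (limma, unadjusted p = 0.0116, adjusted p = 0.252), but its difference was -0.43 in the fit without the covariate.

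Mmp3, stromelysin-1, cuts proteoglycans and adhesive glycoproteins and activates other metalloproteinases (cluster 10583071). It was at 6.37, 6.50 and 7.55 in DOXO mice (lowest, median, highest of the log2 signals) and at 5.90, 5.67, 5.87 and 6.43 in sham mice. The 3 sham signals below all DOXO signals were the wide arrays, and the narrow sham array lay among the DOXO ones. The difference was 0.73 ± 0.19 log2 (SE), 1.66-fold (limma, unadjusted p = 0.00134, adjusted p = 0.133), and 0.69 without the covariate (unadjusted p = 0.00223). It was 1.16 on wide and 0.07 on narrow arrays, and 0.44 with an unadjusted p = 0.00308 (limma) without DOXO replicate 5. The 3 wide sham signals were below their array medians of 6.40, 6.23 and 6.33, and with a mean of 6.46 over all mice Mmp3 was among 8 members that a filter on dim clusters (mean signal above 6.61) left out. The gelatinase Mmp2 gave 0.06 log2 with the array SD and -0.45 without it, and the membrane-bound Mmp14 gave 0.44 (limma, adjusted p = 0.962 and 0.359).

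Lox, lysyl oxidase, which starts the cross-linking of collagen and elastin (cluster 10458894), was at a log2 signal of 6.30, 6.33 and 8.13 in DOXO mice (lowest, median, highest) and at 5.99, 5.97, 6.06 and 6.36 in sham mice. Of the 6 DOXO mice, 4 lay between 6.30 and 6.34, below the highest sham value, and the 2 above it were on wide arrays. The difference was 0.76 ± 0.23 log2 (SE), 1.69-fold (limma, unadjusted p = 0.00401, adjusted p = 0.186), against 0.61 without the covariate (unadjusted p = 0.0353). It was 1.46 on wide arrays and -0.04 on narrow ones. Lox no longer passed without sham replicate 1, 2 or 3 (limma, unadjusted p = 0.0103, 0.0163 and 0.0133), and without DOXO replicate 5 the difference was 0.39 (unadjusted p = 0.00773). Lox was also left out by the filter on dim clusters, with a mean of 6.40. The related Loxl1 gave 0.13 ± 0.16 log2 (SE).

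Nrep, a small intracellular protein also called P311 that has been linked to myofibroblasts and to the making of TGF-beta, was the 1 member called lower in DOXO mice (cluster 10458046). Its log2 signal was 6.75, 7.28 and 7.46 in DOXO mice (lowest, median, highest) and 8.51, 9.28, 9.21 and 7.48 in sham mice. The groups did not overlap, but the narrow sham array at 7.48 lay only just above the highest DOXO mouse. The difference was -1.36 ± 0.27 log2 (SE), 2.56-fold lower in DOXO mice (limma, unadjusted p = 8.44e-05, adjusted p = 0.0497), and -1.43 without the covariate (unadjusted p = 4.93e-05, adjusted p = 0.307). It was -2.10 on wide and -0.15 on narrow arrays, where there was 1 sham mouse. Nrep was the 1 member (2.33%) with all DOXO signals below all sham signals, as were 0.138% of all clusters. The fibroblast markers Pdgfra, a growth factor receptor, and Tcf21, a transcription factor of the fibroblast lineage, gave 0.22 ± 0.18 and 0.03 ± 0.11 log2 (SE).

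**Figure D3:**
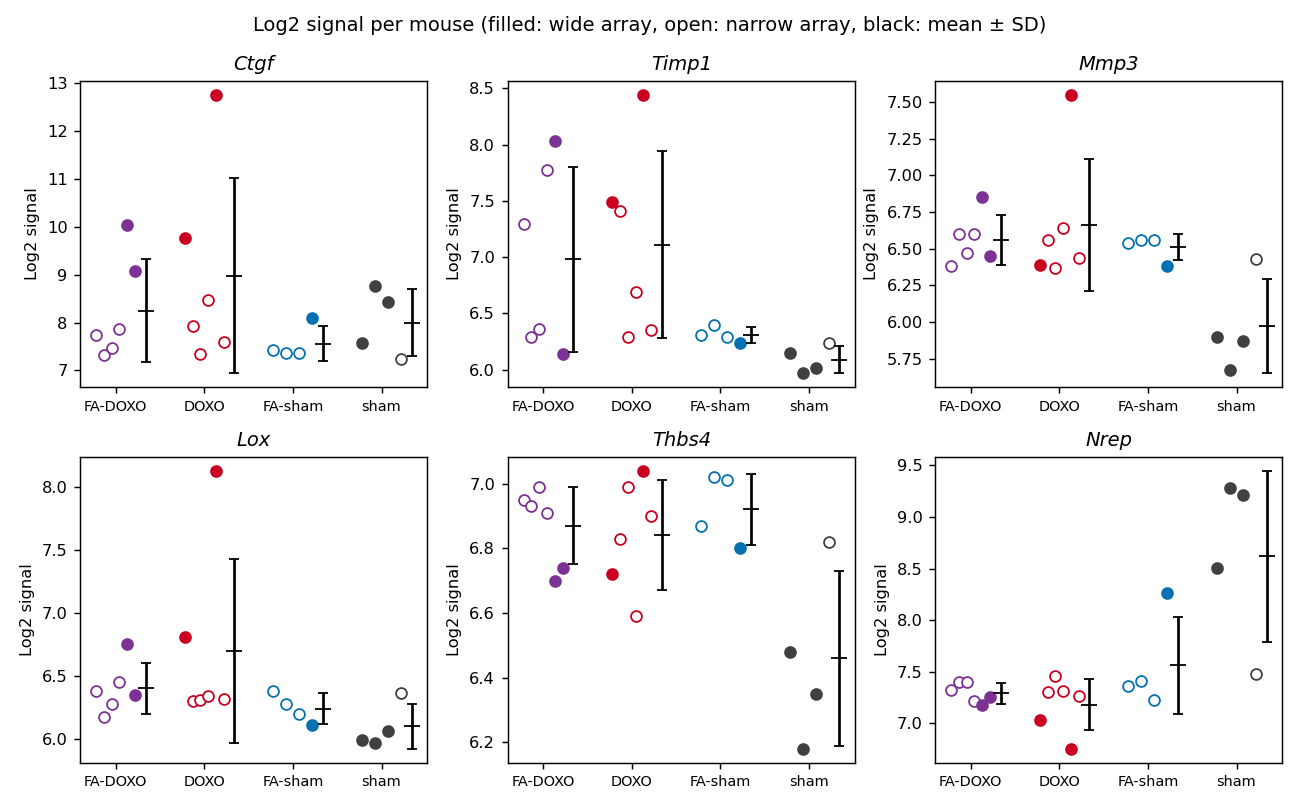
Log2 signal per mouse (vertical axes) of the 6 genes that passed the threshold between DOXO and sham mice, for the FA-DOXO, DOXO, FA-sham and sham groups, drawn filled where the array was wide and open where it was narrow, with black bars for the mean ± SD. The highest DOXO point of Ctgf (12.76), Timp1 (8.44), Mmp3 (7.55) and Lox (8.13) comes from the same mouse, and the 3 wide sham arrays lie apart from the narrow sham array for Mmp3, Thbs4 and Nrep.

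**Figure D4:**
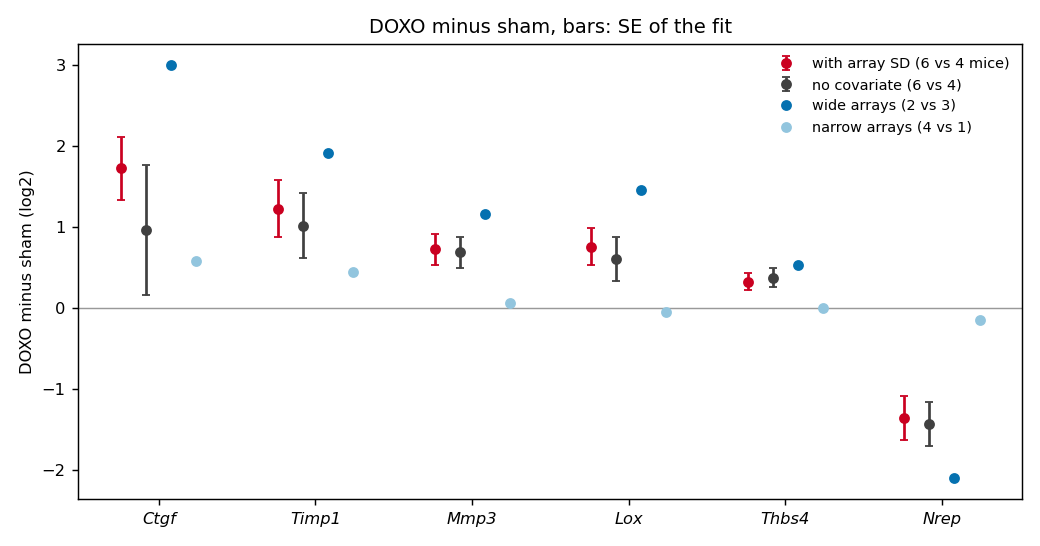
DOXO minus sham difference in log2 signal (vertical axis) of the same 6 genes, from the fit with array SD, from the fit with no covariate (bars, SE), and as plain differences of means within the wide and within the narrow arrays. All 6 differences are farther from 0 on the wide than on the narrow arrays, and Mmp3, Lox and Thbs4 lie between -0.04 and 0.07 on the narrow arrays.

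The RefSeq promoter table (build GRCm38.p6) was searched by each gene's listed symbol and its symbol in the array annotation. These matched 29 of the 43 measured members and 3 of the 6 that passed the threshold, Thbs4, Mmp3 and Timp1. Their 250 bases before the annotated start are shown, since these are the genes that were higher in DOXO mice, with matches to short motifs in capitals. Motifs were searched on both strands, and their shares are over 32851 promoters of the same length. The AP-1 motif TGANTCA was held by 6.75% of them, the TEAD motif GGAATG by 12.6%, the TATA box motif TATAAA by 12.4% and the SMAD motif GTCTAGAC by 0.167%. In Thbs4 (chr13:92794819-92795068, minus strand) the capitals are TEAD letters read on the opposite strand, a pair of matches at -197 to -192 and -192 to -187 that share a base. In Mmp3 (chr9:7445572-7445821, plus strand) they are the AP-1 letters at -46 to -40 and the TATA letters at -7 to -2, and in Timp1 (chrX:20869916-20870165, plus strand) the TEAD letters at -247 to -242. The SMAD letters were in none of these windows. A match is a description of the letters and not a measured site.
Thbs4: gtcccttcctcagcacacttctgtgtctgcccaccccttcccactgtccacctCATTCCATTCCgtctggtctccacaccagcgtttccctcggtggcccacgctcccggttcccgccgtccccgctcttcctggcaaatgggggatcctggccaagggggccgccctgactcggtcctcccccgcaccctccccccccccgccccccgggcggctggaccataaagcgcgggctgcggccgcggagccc
Mmp3: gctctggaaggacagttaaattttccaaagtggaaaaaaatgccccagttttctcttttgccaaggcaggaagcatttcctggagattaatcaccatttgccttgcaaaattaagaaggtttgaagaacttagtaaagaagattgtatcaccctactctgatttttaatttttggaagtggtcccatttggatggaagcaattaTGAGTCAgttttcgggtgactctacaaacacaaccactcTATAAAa
Timp1: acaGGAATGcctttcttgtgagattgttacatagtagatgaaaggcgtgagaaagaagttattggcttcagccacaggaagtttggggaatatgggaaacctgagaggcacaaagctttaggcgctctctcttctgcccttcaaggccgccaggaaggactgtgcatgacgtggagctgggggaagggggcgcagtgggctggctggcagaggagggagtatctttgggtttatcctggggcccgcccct

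The structural collagens did not pass the threshold between DOXO and sham mice. Their mean log2 signals over all mice ran only from 6.75 (Col6a3) to 7.5 (Col1a1). None was left out by the filter on dim clusters, whose limit was 6.61. The wide minus narrow difference was -0.35 for Col1a1 and -0.25 for Col3a1, where the median of all clusters was -0.23. Whether clusters with signals this low could show a change in collagen RNA was not tested. None of 6 fibrillar and fibril-associated collagens passed, with log2 differences from -0.15 to 0.08 and a median of 0.03. Col1a1 was at 7.19, 7.58 and 7.76 in DOXO mice (lowest, median, highest) and at 7.23, 7.40, 7.06 and 7.75 in sham mice, and the groups lay over each other. Its difference was 0.07 ± 0.09 log2 (SE; limma, adjusted p = 0.798). Col3a1 was at 6.82, 7.17 and 7.46 in DOXO mice and at 7.24, 7.12, 7.13 and 7.29 in sham mice, a difference of -0.15 ± 0.07 log2 (SE; limma, unadjusted p = 0.043, adjusted p = 0.377). None of 8 basement membrane, beaded and short-chain collagens passed either, with differences from -0.38 to 0.30. The lowest of these was Col15a1, a collagen of the basement membrane zone of muscle and capillaries, at 6.42, 6.97 and 7.13 in DOXO mice and 6.83, 7.76, 7.17 and 7.10 in sham mice (-0.38 ± 0.15 log2, SE; limma, adjusted p = 0.311). The highest was Col4a2, a chain of the basement membrane network, at 6.76, 7.10 and 8.23 in DOXO mice and 6.85, 7.15, 6.91 and 6.96 in sham mice (0.30 ± 0.19 log2, SE). The value of 8.23 was again DOXO replicate 5, and the other 5 DOXO mice did not exceed the highest sham mouse.

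None of the 4 small leucine-rich proteoglycans passed, and Dcn, Bgn and Lum ranged widely within the groups. Bgn ran from a log2 signal of 6.74 to 10.62 in DOXO mice and from 6.69 to 10.63 in sham mice. Dcn was at a log2 signal of 8.21, 10.97 and 12.66 in DOXO mice (lowest, median, highest) and at 11.95, 12.50, 12.45 and 8.91 in sham mice. The groups overlapped over most of their range, and the difference was 0.30 ± 0.64 log2 (SE) with the array SD and -0.78 without it. Lumican (Lum), which like decorin binds fibrillar collagen, was at 6.03, 6.72 and 7.85 in DOXO mice and at 8.64, 8.59, 8.35 and 5.99 in sham mice. The 3 wide sham arrays lay above all DOXO mice and the narrow one below them, with a difference of -0.57 ± 0.31 log2 (SE; limma, unadjusted p = 0.0836, adjusted p = 0.467). Of the remaining proteoglycans, Bgn gave 0.20 log2 with the array SD and -0.66 without it and Fmod gave 0.21, and the 4 measured elastic fibre and adhesive genes gave -0.09 (Fn1, fibronectin), 0.02 (Fbln1), 0.30 (Fbln2) and 0.19 (Eln, elastin). None of these 4 passed. The 3 TGF-beta ligands did not pass, at 0.05 for Tgfb1, 0.25 for Tgfb2 and -0.17 for Tgfb3.

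Averaged over both diets, the FA-DOXO and DOXO mice set against the FA-sham and sham mice, Ctgf and Timp1 were higher and Nrep was lower with DOXO. That is 2 of 43 members higher, where 2.01% of all clusters were, and 1 of 43 lower, where 0.814% were. The log2 differences were 0.99 ± 0.27 (SE) for Ctgf (limma, unadjusted p = 0.00161, adjusted p = 0.188), 0.89 ± 0.24 for Timp1 (unadjusted p = 0.00181, adjusted p = 0.194) and -0.83 ± 0.19 for Nrep (unadjusted p = 0.000276, adjusted p = 0.0809). No member passed after adjustment (limma), where 0.227% of all clusters did and 8 members had an unadjusted p under 0.05. Without the covariate Ctgf gave 0.83 with an unadjusted p = 0.161 (limma), while Timp1 and Nrep kept their calls at 0.85 and -0.85, each 1 of 43, where 0.316% of all clusters were higher and 0.190% lower. There, 6 members had the opposite sign. Mmp3, at 0.38 ± 0.13 (SE), and Lox, at 0.41 ± 0.16, did not pass (limma, unadjusted p = 0.0106 and 0.0176). Neither did Dcn at 0.63 (0.40 without the covariate), Sparc at -0.33 (-0.51) or Col15a1 at -0.23 (-0.22).

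FA-DOXO versus DOXO, which asks what FA does to the injured ventricle, gave no call among the 43 members. None was higher, where 0.837% of all clusters were, and none was lower, where 0.273% were, and 1 member had an unadjusted p under 0.05 (limma). The median difference was 0.01 log2, as over all clusters. Without the covariate 16 of the 43 had the opposite sign, and again none passed. The member with p under 0.05 was Lum, at 5.90, 6.96 and 8.42 in FA-DOXO mice (lowest, median, highest of the log2 signals) and 6.03, 6.72 and 7.85 in DOXO mice, a difference of 0.62 ± 0.28 log2 (SE; limma, unadjusted p = 0.0381, adjusted p = 0.839), and of 0.27 without the covariate. The groups overlapped almost fully. Dcn was at 7.80, 10.87 and 12.71 in FA-DOXO mice and 8.21, 10.97 and 12.66 in DOXO mice, a difference of 0.42 ± 0.56 log2 (SE) with the array SD and -0.28 without it. Timp2 was at 6.43, 6.96 and 8.49 in FA-DOXO mice and 6.40, 6.90 and 8.82 in DOXO mice, a difference of 0.23 ± 0.12 log2 (SE; limma, unadjusted p = 0.0739) with the array SD and -0.13 without it. The direction of Dcn and Timp2 thus depended on the covariate. At the other end was Col4a2, at 6.79, 6.91 and 7.13 in FA-DOXO mice and 6.76, 7.10 and 8.23 in DOXO mice, a difference of -0.25 ± 0.17 log2 (SE), or -0.29 without the covariate.

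The genes called between DOXO and sham mice did not pass here. Ctgf was at 7.33, 7.80 and 10.05 in FA-DOXO mice (lowest, median, highest of the log2 signals) and at 7.35, 8.20 and 12.76 in DOXO mice, a difference of -0.24 ± 0.34 log2 (SE; limma, unadjusted p = 0.496), or -0.73 without the covariate. Lox was at 6.17, 6.36 and 6.75 in FA-DOXO mice and at 6.30, 6.33 and 8.13 in DOXO mice, a difference of -0.21 ± 0.20 log2 (SE). Ctgf and Lox had their highest signal in DOXO replicate 5, and so did Timp1 (8.44), Mmp3 (7.55) and Thbs4 (7.04). Timp1 was at 6.14, 6.82 and 8.03 in FA-DOXO mice and at 6.29, 7.05 and 8.44 in DOXO mice, a difference of 0.01 ± 0.31 log2 (SE), or -0.13 without the covariate. Nrep was at 7.18, 7.29 and 7.40 in FA-DOXO mice and at 6.75, 7.28 and 7.46 in DOXO mice, a difference of 0.16 ± 0.24 log2 (SE). All of these groups overlapped. With 6 mice in each group, a difference about as large as these standard errors was not detectable.

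FA-DOXO versus FA-sham also gave no call, with 0.604% of all clusters higher and 0.463% lower, and no member had an unadjusted p under 0.05 (limma). The member differences ran from -0.39 (Sparc) to 0.96 (Dcn) log2 with a median of -0.03. Without the covariate Sparc was at 0.11 and Dcn at 1.58, and 13 of the 43 members had the opposite sign. Sparc was at 6.85, 7.75 and 9.88 in FA-DOXO mice and at 7.16, 7.27, 7.21 and 9.98 in FA-sham mice. Timp1 was at 6.14, 6.82 and 8.03 in FA-DOXO mice and at 6.31, 6.40, 6.29 and 6.24 in FA-sham mice, a difference of 0.55 ± 0.35 log2 (SE; limma, unadjusted p = 0.131). Of the FA-DOXO mice, 3 were at 7.29 or above and the other 3 stayed within the range of the FA-sham mice or near it. Nrep was at 7.18, 7.29 and 7.40 in FA-DOXO mice and at 7.36, 7.41, 7.22 and 8.26 in FA-sham mice, the last on the wide array. Its difference was -0.31 ± 0.26 log2 (SE). Thbs4 gave -0.02 ± 0.10 log2 (SE), Mmp3 0.03 ± 0.19, Lox 0.07 ± 0.23 and Ctgf 0.25 ± 0.38. Without the covariate these 4 were -0.05, 0.05, 0.16 and 0.68. In DOXO versus sham the same 4 genes had given 0.33, 0.73, 0.76 and 1.73 with the array SD.

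FA-sham versus sham, the effect of FA without DOXO, gave no call with the array SD in the fit, where 1.65% of all clusters were higher and 0.173% lower. There were 5 members with an unadjusted p under 0.05 (limma). Ctgf gave 1.24 ± 0.46 log2 (SE), Mmp3 0.63 ± 0.23, Timp3 0.54 ± 0.23, Thbs4 0.33 ± 0.12 and Nrep -0.89 ± 0.32. Without the covariate Thbs4 and Nrep passed, at 0.46 and -1.06 (limma, unadjusted p = 0.00289 and 0.00229), as 1 of 43 each way, where 3.80% of all clusters were higher and 0.552% lower. There 20 of the 43 members had the opposite sign, among them Ctgf at -0.44 and Timp3 at -1.61. This comparison and DOXO versus sham share the 4 sham mice, of which 3 were on wide arrays. The interaction, the DOXO effect in FA-fed mice minus that in placebo-fed mice, called none of the members, against 0.368% of all clusters higher and 1.41% lower, and 6 members had an unadjusted p under 0.05 (limma). It was -1.47 ± 0.55 log2 (SE) for Ctgf (limma, unadjusted p = 0.0155, adjusted p = 0.538), or -0.29 without the covariate, and 1.05 ± 0.38 for Nrep (unadjusted p = 0.0138, adjusted p = 0.538), for which it was 1.17 with an unadjusted p = 0.0072 in the limma fit without the covariate. That call was 1 of 43, where 0.207% of all clusters were higher and 0.256% lower without the covariate, and 11 members had the opposite sign there. The DOXO difference of these genes was thus not shown to depend on FA at the threshold used.

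**Figure D5:**
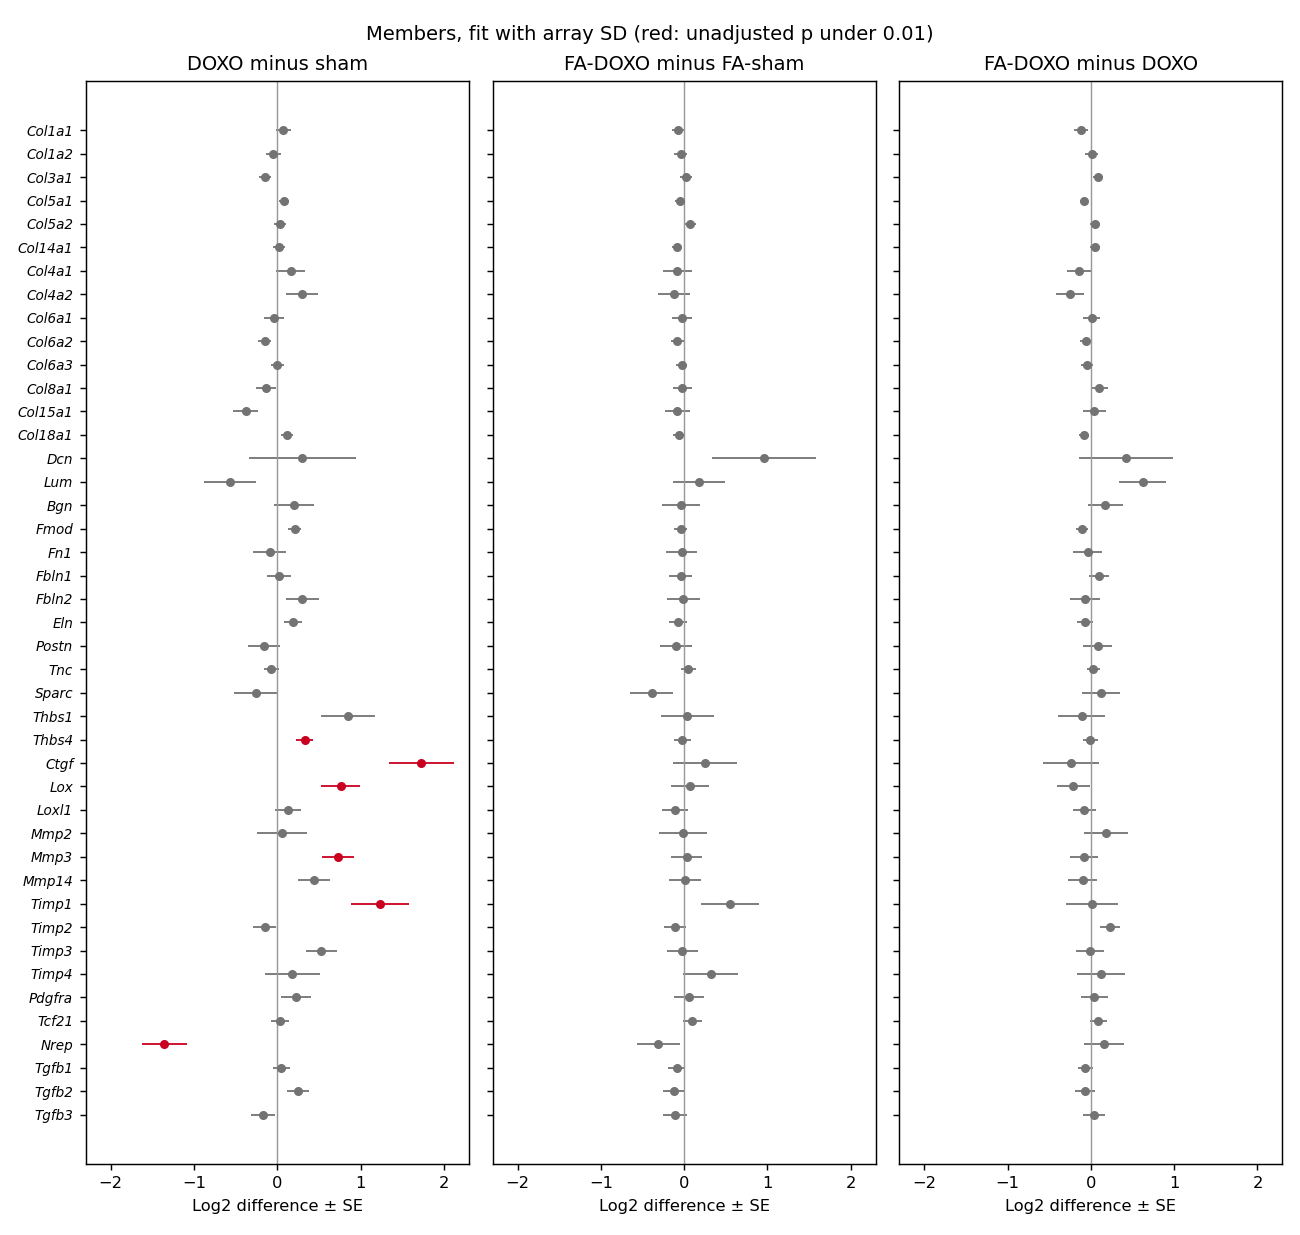
Fitted log2 difference ± SE (horizontal axes) of each of the 43 measured members, ordered by role from the collagens at the top to the TGF-beta ligands at the bottom, for DOXO minus sham, FA-DOXO minus FA-sham and FA-DOXO minus DOXO, with array SD in the fit. The 6 red points, all in DOXO minus sham, have an unadjusted p under 0.01 and run from -1.36 (Nrep) to 1.73 (Ctgf).

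Genes around these pathways were listed as well, and some passed between DOXO and sham mice. Of all clusters 3.14% were higher and 1.00% lower there, and 0.532% and 0.515% without the covariate. Of 16 genes that fold, process and cross-link collagen, P4hb was higher and Serpinh1 lower. Serpinh1, the chaperone of procollagen, differed by -0.57 ± 0.17 log2 (SE; limma, unadjusted p = 0.00303, adjusted p = 0.168) and by -0.72 without the covariate. P4hb, a disulphide isomerase and subunit of prolyl hydroxylase, differed by 0.76 with the array SD and -0.05 without it. Among 28 other matrix glycoproteins and proteoglycans, asporin (Aspn) was lower by -1.05 ± 0.33 log2 (SE; limma, unadjusted p = 0.00527, adjusted p = 0.201) and matrilin 2 (Matn2) by -0.28 ± 0.09, and neither passed without the covariate (-1.49 with unadjusted p = 0.0108, and -0.25 with unadjusted p = 0.0225, limma). Of 24 integrins and other matrix receptors, Itgb6, whose integrin activates latent TGF-beta, was lower at -1.03 ± 0.27 log2 (SE; limma, unadjusted p = 0.00119, adjusted p = 0.129), and the heparan sulphate proteoglycan Sdc4 was higher at 0.34 ± 0.12. Itgb6 also passed without the covariate, at -1.09, and Sdc4 did not, at 0.29. Col4a5 was the 1 of 16 other collagens to pass, at 0.21 ± 0.06, and did not pass without the covariate, at 0.27. Of 19 other matrix proteases and inhibitors only Mmp8, the collagenase of neutrophils, was higher, at 0.53 ± 0.15 and at 0.54 without the covariate. None of 25 genes of the TGF-beta and BMP pathway passed, with a median of 0.08, nor did any of 11 myofibroblast markers (median -0.02) or of 10 laminins (median 0.03). Of 16 other fibroblast markers Lox, which is also a member, and Medag passed as higher, and without the covariate neither passed and Medag had the opposite sign (0.28 with the array SD, -0.07 without it). In FA-DOXO versus DOXO 1 gene of these lists passed as higher, where 0.837% of all clusters did. It was Itgb1, the beta chain shared by most collagen and fibronectin receptors, at 0.33 ± 0.11 log2 (SE; limma, unadjusted p = 0.00809, adjusted p = 0.839) and at -0.21 without the covariate.

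Cell type markers were set against DOXO versus sham as well, and neutrophil markers gave the most calls. Of 12 neutrophil markers 6 were higher in DOXO than in sham mice and none was lower, with and without the array SD. Of all clusters 3.14% were higher and 1.00% lower with it, and 0.532% and 0.515% without it. These shares also stand beside the other cell types below. S100a8, a subunit of calprotectin, an abundant protein of neutrophils, differed by 1.35 ± 0.32 log2 (SE; limma, unadjusted p = 0.000565, adjusted p = 0.0967), and Ngp, Retnlg, S100a9, Mmp8 and Elane by 1.40, 1.11, 0.70, 0.53 and 0.26. The mean log2 signal of the 12 markers ranged from 6.37 to 6.61 in DOXO mice and from 5.60 to 6.37 in sham mice. In FA-sham mice, which had no DOXO, it ranged from 6.18 to 6.47. FA-sham versus sham called 1 of the 12 as higher in both fits, and FA-DOXO versus FA-sham called none. On wide arrays the mean signal averaged 6.61 in DOXO and 5.77 in sham mice, the latter below the medians of those sham arrays (6.40, 6.23 and 6.33). On narrow arrays it averaged 6.41 in DOXO mice and was 6.37 in the 1 sham mouse. Of 12 macrophage markers C1qa and Cd68 were higher, by 0.37 and 0.31, and by 0.10 and 0.11 without the covariate, where neither passed. The part of these cells in the signals of Timp1, Mmp3 and the other members was not tested. None of 12 cardiomyocyte, 13 endothelial, 7 adipocyte or 8 valve and cartilage markers passed. Of 12 smooth muscle and pericyte markers Kcnj8 was lower, by -0.58 log2, and of 5 red cell markers Alas2, by -0.70. Alas2 also passed without the covariate and Kcnj8 did not, at -0.90. Of 10 lymphocyte, 8 mesothelial and 6 nerve markers 1 each was higher (Cd3g, Krt18 and Sox10, by 0.19, 0.30 and 0.24), and none of these 3 passed without the covariate.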

How the data were processed

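Total RNA of the left ventricle was hybridized to Affymetrix Mouse Gene 1.0 ST arrays, 1 per mouse. The authors deposited 1 log2 signal per transcript cluster and array, made with R 2.14.2 per the submitters' processing notes and with Bioconductor packages. How background was corrected, arrays normalized and probes summarized is not given in the sources used here. Array medians and spreads differed, so differences between arrays enter the comparisons, and without detection calls a low signal cannot be told from background. The precision is limited by the number of arrays.

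Groups came from the labels. To each of 34760 clusters, 1 mean per group and the centred array SD were fitted over all 20 arrays (limma 3.58.1, R 4.3.3; two-sided moderated contrasts, 15 residual degrees of freedom). A call was an unadjusted p under 0.01, and Benjamini-Hochberg values cover all clusters. Of the clusters, 21640 carried 1 gene symbol, 1321 several, and 11799 were not listed in the annotation. No 2 arrays were identical. The labels number the arrays of a group as replicates, read here as separate mice, and p-values rest on 1 spread between mice per cluster. The fit takes this spread as the same on all arrays, but most members spread more on wide ones. The SD was 1.01 on wide and 0.09 on narrow arrays for Nrep, and 0.73 and 0.08 for Lox. Only Col6a2, Dcn and Timp4 spread less on wide arrays. The covariate shifts the means and does not correct for this.

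The members and lists were chosen with earlier results of these data known. Named with their values were the members past 0.01 in any comparison and the 3 largest differences in each direction for DOXO versus sham, FA-DOXO versus DOXO and both diets together. Col1a1, Dcn, Pdgfra and Tcf21 served as markers. Up to 3 genes of each other pathway list with the smallest p were eligible, and those that passed are named. Col3a1, Timp3, Itgb1, the members named only for a turned sign and the cell type markers are outside this rule, picked once their values had been seen. The code was tested on simulated data before use. There were 14 alternative settings (no covariate, other scalings and centring, wide or narrow arrays alone or as a block, array weights, other filters and moderation, only the compared groups, a replicate block and, chosen after seeing the data, the array SD with its square), and each of 20 mice was left out in turn. Averaging the clusters of a gene could not differ, since each member had 1.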

Additional observations from a re-analysis of the deposited data

Results flagged for a closer look

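In 10 of the 52 groups tested over 13 named genes, 1 mouse lay far from the others of its group, where chance alone flags about 1 group in 20. Of these 10 values, 8 were on wide arrays and 2 on narrow ones. DOXO replicate 5, a wide array, stood apart for 4 genes, with log2 signals of 7.55 for Mmp3 (the other DOXO mice, 6.37 to 6.64), 8.13 for Lox (6.30 to 6.81), 9.13 for Thbs1 (6.68 to 6.78) and 8.23 for Col4a2 (6.76 to 7.11). FA-sham replicate 4, the only wide array of its group, stood apart for 4 genes, at 8.10 for Ctgf (others 7.36 to 7.43), 7.82 for Lum (6.08 to 6.31), 9.98 for Sparc (7.16 to 7.27) and, on the low side, 6.38 for Mmp3 (6.54 to 6.56). Sham replicate 4, the only narrow array of its group, was low for Lum at 5.99 (others 8.35 to 8.64) and for Dcn at 8.91 (others 11.95 to 12.50).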

How the results depend on the processing

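Between DOXO and sham mice 6 members were called (4.14% of all clusters). Called members were 3 with no covariate (1.05% of all clusters), 1 after quantile normalization (0.995%) and 1 with arrays scaled to one SD (0.765%), both without the covariate, 0 on narrow arrays alone (0.578%), where Lox turned to -0.04, and 3 with only the compared groups fitted (1.58%), in each setting genes that were among the 6. With dim clusters left out 4 were called, since Lox and Mmp3 were not among the clusters kept. The 4.14% is a share of all clusters and is not the background of that count. Timp1 was kept, at a mean of 6.71 against the limit of 6.61, only through the groups where it was high. Its group means were 7.11 in DOXO, 6.98 in FA-DOXO, 6.31 in FA-sham and 6.09 in sham mice. Leaving out mice gave 3 called members (without sham replicate 2; 2.53% of all clusters) to 9 (without DOXO replicate 1; 4.37%), and 8 without sham replicate 4, where 8.02% of all clusters were called, of which 3 to 6 were among the original 6. Nrep passed in 13 of 14 settings, all but the narrow arrays, and in all 20 fits with a mouse left out. The other calls between DOXO and sham mice held less often. Ctgf passed in 10 of 14 settings, Timp1 in 9 of 14, Mmp3 in 8 of 13, Lox in 7 of 13 and Thbs4 in 5 of 14. With a mouse left out, Ctgf and Mmp3 passed in 20 of 20 fits, Timp1 in 18, Lox in 17 and Thbs4 in 16. Over both diets the 3 called (2.83% of all clusters) became 1 after quantile normalization (0.696%), with arrays scaled to one SD (0.529%) and on wide arrays alone (0.751%), 0 on narrow arrays (0.88%) and 5 with array weights (4.45%), and 3 to 6 with mice left out (6 without sham replicate 4, 4.72%, 5 without sham replicate 1, 3.92%, or DOXO replicate 5, 2.95%). For FA-sham versus sham, 0 (1.83% of all clusters) became 2 with no covariate (4.35%), 1 with scaled arrays (3.1%) or median centring (1.13%), 3 with array weights (1.78%) and 2 with a block for array width (2.94%), and the members' median of 0.10 became -0.17 with scaled arrays. Leaving out mice gave 0 to 5 there (5 without sham replicate 4, 4.49%, 2 without DOXO replicate 1, 2.21%, or 5, 2.24%, 1 without FA-sham replicate 4, 1.51%, or DOXO replicate 4, 1.69%). For the interaction, 0 (1.78% of all clusters) became 1 with no covariate (0.463%), scaled arrays (0.734%), median centring (1.3%) or wide arrays alone (0.101%) and 2 with array weights (1.51%), and 0 to 6 with mice left out (6 without sham replicate 4, 4.73%, 2 without DOXO replicate 1, 2.00%, 1 without FA-sham replicate 4, 1.72%, or DOXO replicate 4, 1.82%). For FA-DOXO versus DOXO, 0 (1.11%) became 1 with the squared array SD (1.36%), and the median of 0.01 became -0.22 on wide arrays. FA-DOXO versus FA-sham gave 0 in all settings and with each mouse left out. With the replicate block and array SD, Nrep (-1.06), Ctgf (1.18), Mmp3 (0.47) and Timp1 (1.00) still passed between DOXO and sham mice, Lox (0.48, limma unadjusted p = 0.0381) and Thbs4 (0.25, unadjusted p = 0.0546) did not, and over both diets Ctgf (0.61, unadjusted p = 0.0172) did not. The deviations of same-numbered mice had a correlation above 0.1 in 12 of 26 pairs (-0.856 to 0.839). The highest was between 2 wide arrays, replicate 5 of FA-DOXO and DOXO. The lowest was between a wide and a narrow array, replicate 4 of FA-sham and sham. Since array width enters these deviations, the check cannot decide whether the numbers pair the mice. The causes of these differences were not tested, beyond the smaller number of arrays in the subsets. The narrow subset holds 1 sham mouse, which was taken to vary like the other groups.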
